A study of Mus musculus with 24 samples.

Results

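The Fc gamma receptors bind the constant part of IgG antibodies, and most of them reach the cell interior through a shared signalling chain. The 5 genes described here were taken by symbol from the 54532 genes of the deposited table. They are the receptor genes Fcgr1, Fcgr2b, Fcgr3 and Fcgr4 and the chain gene Fcer1g. Fcgr1 (ENSMUSG00000015947) encodes the high-affinity IgG receptor CD64, and Fcgr3 and Fcgr4 encode activating receptors of lower affinity. Fcgr2b encodes the only inhibitory receptor of the set, and Fcer1g encodes the FcR gamma chain, which the activating receptors need for surface expression and signalling.

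When immune complexes cluster an activating receptor, Src family kinases phosphorylate the tyrosines of an activation motif (ITAM) in the gamma chain, and the kinase Syk then docks there. FcγRIIb carries an inhibitory motif (ITIM) in its own tail and recruits phosphatases that damp the same signal. The balance of activating and inhibitory receptors on macrophages and dendritic cells is a classical setting of the threshold for responses to immune complexes, and interferons are known to raise Fcgr1 and Fcgr4 in mouse myeloid cells.

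Gene expression was measured by polyA RNA sequencing in bone marrow-derived macrophages (BMDMs, raised in medium conditioned by L929 cells) and in dendritic cells raised from bone marrow (BMDCs) in GM-CSF plus IL-4. The marrow came from tamoxifen-treated mice on the C57BL/6N background. Cells labelled WT carried Tmem173 fl/fl, the floxed gene of the DNA-sensing adaptor STING, and cells labelled CRE carried the same floxed alleles with Lyz2-CreERT2, a tamoxifen-inducible Cre driven by a myeloid lysozyme gene. Both labels therefore share the floxed alleles and tamoxifen, and Cre is expressed only in cells that use the Lyz2 promoter. Each was left as control (CT) or given the mouse STING agonist DMXAA (DX), which made 8 groups of 3 libraries. The deposited design gives DMXAA at 40 µM while the methods of the study state its doses per mL by weight, and neither the length of the treatment for sequencing nor the age of these mice is given in the sources used here. The labels do not say that libraries of a group came from separate mice, so p-values measure the spread between libraries, which may be technical.

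The 24 libraries held between 15657347 and 18912887 reads counted on genes. The 4 BMDM libraries numbered 3 stood apart, with summed leukocyte markers (8 genes) of 1.85 to 18.3 CPM (counts scaled to the library total) against 4014 to 5930 in the other 8 BMDM libraries, and summed fibroblast markers (9 genes) of 13206 to 19885 CPM against 34.4 to 492. They were left out of the tests and are described apart, so BMDM groups hold 2 libraries. In the other BMDM libraries the 10 macrophage markers summed to 9405 to 22600 CPM, and in BMDCs the 12 dendritic cell markers summed to 10711 to 21110 CPM against 187 to 664 in BMDMs. Markers of B cells (6 genes, at most 6.40 CPM) and NK cells (6 genes, at most 8.52 CPM), which also use Fcgr2b and Fcgr3, were near 0 in these 20 libraries. Tmem173 stood at 25.4 to 50.3 CPM in WT and 18.7 to 25.4 CPM in CRE BMDMs, and at 68.6 to 123 against 48.1 to 98.3 CPM in BMDCs, where the labels overlapped. Reads of the gene were thus present in every library labelled CRE, and counts over the whole gene do not show the deleted part on its own. Some BMDC libraries were closer to a library of the other label than to any of their own, with values given beside the comparison of labels.

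Of the 5 genes 4 lie together on chromosome 1 (GRCm38): Fcgr2b (170958617 to 170976547, minus strand), Fcgr4 (171018920 to 171029761, plus), Fcgr3 (171051174 to 171064935, minus) and Fcer1g (171229572 to 171234365, minus). Fcgr1 lies on chromosome 3 (96282909 to 96293969, minus). The 2 coding stretches that set activation apart from inhibition are given here in the sense direction, with the codons of the motif in capitals. The first spans an exon junction and starts at codon 65 of the 86-codon Fcer1g reading frame of the GENCODE M21 annotation. Another Fcer1g coding transcript, of 92 codons, held no match to the activation pattern. The second stretch starts at codon 317 of the longest Fcgr2b reading frame (340 codons) and was found in all 4 coding transcripts of that gene.
Fcer1g activation motif, chr1:171229880-171230081, minus strand: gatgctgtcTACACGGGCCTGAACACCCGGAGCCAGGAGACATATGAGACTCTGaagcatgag
Fcgr2b inhibitory motif, chr1:170961062-170961097, minus strand: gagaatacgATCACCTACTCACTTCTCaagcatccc
The activation pattern matched in no coding transcript of the 4 receptors. The inhibitory pattern also matched, as letters only, in Fcgr1, Fcgr4 and Fcer1g.

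Levels between genes are compared in FPKM, fragments per kilobase of gene model and of sequencing depth as the authors scaled them. In control BMDMs Fcer1g was the most abundant of the 5 at 626 to 790 FPKM. Fcgr3 followed at 228 to 399, then Fcgr1 at 28.7 to 49.5, Fcgr4 at 18.4 to 22.0 and Fcgr2b at 11.2 to 16.6 FPKM. Control BMDCs put the inhibitory receptor above Fcgr1 and Fcgr4. There Fcer1g stood at 332 to 562 FPKM, Fcgr3 at 321 to 556, Fcgr2b at 24.5 to 98.8, Fcgr1 at 11.6 to 21.3 and Fcgr4 at 2.999 to 5.49. The gene model of Fcgr2b used for FPKM is 5790 bases long whereas its longest coding transcript has 3544, so its level per length may be understated beside the other genes.

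Over the 8 groups Fcgr1 was highest in BMDMs with DMXAA, at 711 ± 304 FPKM in WT (mean ± SD, n = 2) and 627 ± 13.0 in CRE, whose ranges overlapped. Both lay apart from the BMDCs with DMXAA at 65.8 ± 28.1 in CRE and 61.7 ± 32.4 in WT (n = 3), which overlapped each other and the control BMDMs. Fcgr4 separated most groups, from 253 ± 11.6 FPKM in WT and 118 ± 1.35 in CRE BMDMs with DMXAA down to 4.53 ± 1.34 and 4.30 ± 1.06 in CRE and WT control BMDCs. Its only overlaps in that order were between the labels of BMDCs. Fcgr2b ran from 83.2 ± 14.7 FPKM in WT control BMDCs to 7.40 ± 0.122 in CRE BMDMs with DMXAA, and the mean of every BMDC group lay above that of every BMDM group, although WT BMDCs with DMXAA (15.1 FPKM at the lowest) overlapped WT control BMDMs (16.6 at the highest). Fcgr3 had the narrowest span, from 463 ± 82.6 FPKM in WT control BMDCs to 260 ± 46.3 in WT control BMDMs, and 6 of its 7 neighbouring groups overlapped. Fcer1g ran from 1105 ± 0.475 FPKM in WT BMDMs with DMXAA to 441 ± 116 in CRE control BMDCs, and of its neighbouring groups all but the top pair overlapped.

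**Figure D1:**
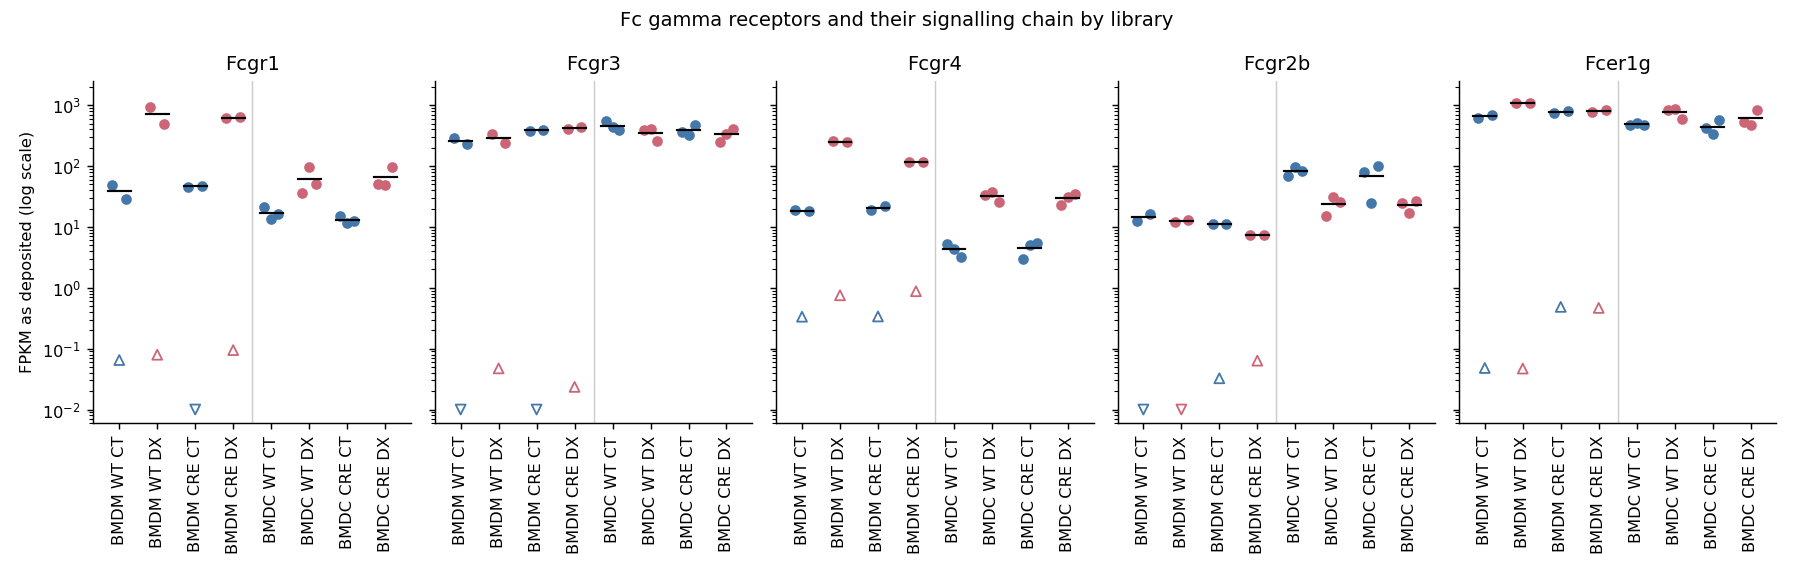
FPKM of the 5 genes in each library (log axis), with blue for control (CT) and red for DMXAA (DX) and a bar at the group mean. Open triangles are the BMDM libraries numbered 3, those pointing down being listed at 0, and all of them sit below 1 FPKM while every filled BMDM point is at 7.32 or more.

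In WT BMDMs DMXAA raised the high-affinity receptor Fcgr1 and the activating receptor Fcgr4 most among the 5 genes. Fcgr1 was at 49.5 and 28.7 FPKM in control and at 925 and 496 FPKM with DMXAA. The higher and the lower library carried the same number in both treatments. Its log2 fold change was 4.07 ± 0.37 (SE; 16.9-fold, adjusted p = 0.000371, edgeR quasi-likelihood test with TMM scaling and Benjamini-Hochberg adjustment, as in all tests below unless stated). Fcgr4 went from 18.8 and 18.4 FPKM to 261 and 244 FPKM. The groups were far apart, and the log2 fold change was 3.65 ± 0.13 (12.6-fold, adjusted p = 1.05e-05).

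The signalling chain moved less in WT BMDMs. Fcer1g was at 626 and 694 FPKM in control and 1105 and 1104 FPKM with DMXAA, with a log2 fold change of 0.63 ± 0.12 (adjusted p = 0.00654). This call depended on scaling. Scaled to total counts, Fcer1g stood at 614 and 677 CPM in control and 663 and 744 CPM with DMXAA, and its log2 fold change of 0.12 had an adjusted p of 0.396. Fitted alone with the 2 groups compared it had an adjusted p of 0.0860.

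The other low-affinity receptors of WT BMDMs did not pass. Fcgr3 was at 293 and 228 FPKM in control and 333 and 240 FPKM with DMXAA, overlapping ranges with a log2 difference of 0.03 ± 0.18 (adjusted p = 0.925). Scaled to total counts its difference turned to -0.50 (adjusted p = 0.0356). Fcgr2b was at 12.3 and 16.6 FPKM in control and 12.1 and 12.8 FPKM with DMXAA, a log2 difference of -0.33 ± 0.17 (adjusted p = 0.161) that reached -0.84 with total counts (adjusted p = 0.00603).

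So 3 of the 5 genes passed in WT BMDMs, all of them higher. Of the 11569 genes tested there 39.2% passed, 18.4% of them higher and 20.7% lower as shares of all genes tested. The scaling matters for the genes with small differences because the median of all genes was -0.08 with TMM and -0.59 with total counts in this comparison. The median was -0.01 against -0.24 in CRE BMDMs, 0.01 against -0.36 in WT BMDCs and -0.01 against -0.34 in CRE BMDCs. Higher genes made up 47.1%, 72.8%, 52.7% and 55.2% of calls in these 4 comparisons with TMM, and 20.4%, 43.6%, 26.4% and 26.4% with total counts. The deposited FPKM of the 20 libraries tested differ in the same way, since they were scaled to effective library sizes of 0.687 to 0.893 times the total with DMXAA and 1.03 to 1.16 times in controls.

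In CRE BMDMs the same receptors rose. Fcgr1 was at 45.9 and 47.2 FPKM in control and 618 and 636 FPKM with DMXAA, a log2 fold change of 3.73 ± 0.37 (13.3-fold, adjusted p = 0.00153). Fcgr4 was at 19.2 and 22.0 FPKM in control and 117 and 119 FPKM with DMXAA, a log2 fold change of 2.49 ± 0.12 (5.63-fold, adjusted p = 7.52e-05). These groups did not overlap for either gene.

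The chain and the remaining receptors of CRE BMDMs stayed below the threshold. Fcer1g was at 739 and 790 FPKM in control and 770 and 824 FPKM with DMXAA, a log2 difference of 0.04 ± 0.12 (adjusted p = 0.876) that turned to -0.19 with total counts. Fcgr3 was at 384 and 399 FPKM and then 414 and 441 FPKM, a log2 difference of 0.10 ± 0.18 (adjusted p = 0.757) that turned to -0.12. Fcgr2b was at 11.2 and 11.3 FPKM in control and 7.32 and 7.49 FPKM with DMXAA. Its groups did not overlap and its log2 difference was -0.63 ± 0.17 (adjusted p = 0.0628), short of the threshold. It passed in 8 of 11 other settings that kept these libraries and added none, such as total counts (-0.85, adjusted p = 0.0255). It did not pass when the BMDM libraries numbered 3 were added. In all, 2 of the 5 genes passed in CRE BMDMs, where 10.0% of all genes did, 7.28% higher and 2.72% lower. The summed macrophage markers were lower with DMXAA in both labels, going from 20990 and 22600 to 10858 and 13199 CPM in WT and from 14125 and 14302 to 9405 and 9563 CPM in CRE BMDMs. Their median marker moved less, from 745 and 770 to 676 and 677 CPM in WT and from 657 and 672 to 574 and 587 CPM in CRE. In bulk libraries fewer cells of a type and less RNA per cell cannot be told apart, and the part of these markers in the receptor values was not tested.

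**Figure D2:**
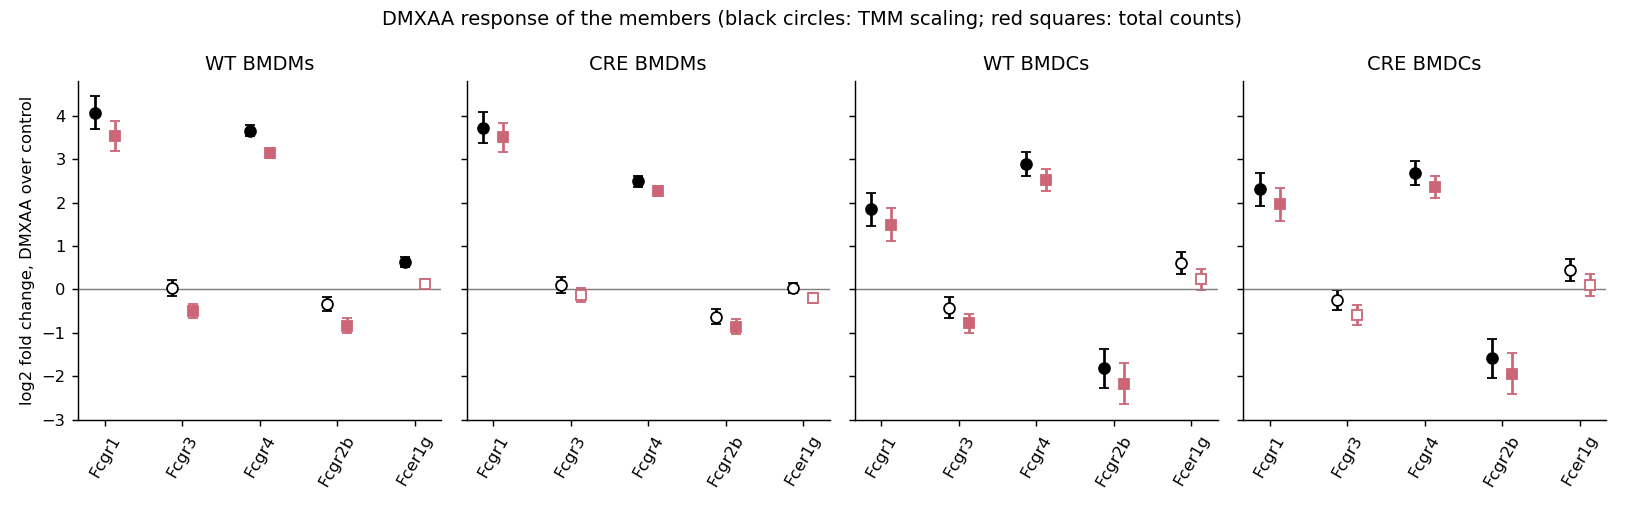
Log2 fold change (DMXAA over control, error bars ± SE) of the 5 genes in BMDMs and BMDCs of each label, with black circles for TMM scaling, red squares for total counts and filled symbols for an adjusted p under 0.05. Fcgr1 and Fcgr4 are filled and at 1.49 or more in all 4 responses under both scalings, whereas Fcgr3 and Fcer1g in CRE BMDMs change sign with the scaling.

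The question of the design is how far deletion of STING changes the response, and in BMDMs the Fcgr4 response was smaller in CRE than in WT cells. With DMXAA, Fcgr4 was at 261 and 244 FPKM in WT and 117 and 119 FPKM in CRE BMDMs, a log2 difference of -1.05 ± 0.12 (CRE over WT, adjusted p = 0.00254). The response itself differed: the interaction of label and DMXAA was -1.16 ± 0.16 on the log2 scale (adjusted p = 0.0218). It was the only one of the 5 to pass the interaction test, which 3.66% of all genes did, 1.38% with a higher and 2.28% with a lower value. Leaving out any of the 4 CRE libraries left a log2 interaction of -1.26 to -1.06 but ended the call (adjusted p = 0.145 to 0.166), and leaving out any of the WT libraries kept it. Scaled to total counts the interaction was -0.88 and passed.

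For Fcgr1 the test of such a difference did not pass. Its interaction was -0.35 ± 0.46 (adjusted p = 0.748), and with DMXAA the 618 and 636 FPKM of CRE BMDMs lay between the 2 WT values. Fcer1g was at 770 and 824 FPKM in CRE against 1105 and 1104 FPKM in WT BMDMs with DMXAA, a log2 difference of -0.42 ± 0.12 with an adjusted p of 0.0499. Its interaction of -0.60 ± 0.17 missed the threshold (adjusted p = 0.110), but passed with DESeq2, which called 10.3% of all genes there, and with the library number as a block within the label (adjusted p = 0.0314), which called 14.7%. The call of a difference with DMXAA ended without any 1 of the 4 libraries compared (adjusted p = 0.0742 to 0.267). The difference was -0.19 with total counts (adjusted p = 0.267). It also missed the threshold with no low-value filter (adjusted p = 0.181), in voom with a weight per label (0.0790) and with the 2 groups fitted alone (0.0725).

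The inhibitory receptor was also lower in CRE BMDMs with DMXAA. Fcgr2b was at 7.32 and 7.49 FPKM in CRE against 12.1 and 12.8 FPKM in WT BMDMs, a log2 difference of -0.70 ± 0.17 (adjusted p = 0.0308). This call too ended without any 1 of the 4 libraries compared (adjusted p = 0.0604 to 0.176), and with total counts (-0.47, adjusted p = 0.0875). Fcgr3 was at 414 and 441 FPKM in CRE against 333 and 240 FPKM in WT, groups that did not overlap and a log2 difference of 0.63 ± 0.18 that missed the threshold (adjusted p = 0.0573) and passed with total counts (0.87, adjusted p = 0.0126). With DMXAA, 3 of the 5 genes were thus lower in CRE BMDMs, against 9.99% of all genes lower, 9.26% higher and 19.2% in either direction. Higher genes were 48.1% of these calls with TMM, 40.5% with the median of ratios and 70.9% with total counts, and 37.7%, 30.4% and 66.7% of those of the interaction.

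In control BMDMs none of the 5 passed between the labels, where 0.0432% of all genes did. Both Fcgr3 (log2 difference 0.55 ± 0.18) and Fcgr2b (-0.40 ± 0.16) had an unadjusted p under 0.05 in edgeR, and DESeq2 called 0 of the 5. Fibroblast markers were 466 to 492 CPM in the WT BMDM libraries numbered 2 and 34.4 to 66.4 CPM in the other 6, and the 2 CRE libraries of each treatment were closer to each other than the WT ones, with a chi-square per gene of 3.40 and 5.32. The part of these values in the differences between labels was not tested.

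In BMDCs DMXAA raised the same pair of activating receptors and lowered the inhibitory one. In WT BMDCs Fcgr1 was at 21.3, 13.6 and 16.2 FPKM in control and 36.8, 98.4 and 50.03 FPKM with DMXAA, in the order of the library numbers. The groups did not overlap, and the log2 fold change was 1.84 ± 0.38 (3.59-fold, adjusted p = 0.00338). Fcgr4 went from 5.32, 4.38 and 3.20 FPKM to 33.1, 38.0 and 25.7 FPKM, a log2 fold change of 2.88 ± 0.28 (7.38-fold, adjusted p = 2.31e-05). The lowest of the 3 DMXAA values was 25.7 FPKM and the highest control value 5.32.

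Fcgr2b fell in WT BMDCs from 68.7, 98.0 and 82.8 FPKM to 15.1, 30.8 and 26.2 FPKM. Every DMXAA value was below every control value. The log2 fold change was -1.81 ± 0.45 (3.51-fold lower, adjusted p = 0.00942), and it stayed past the threshold when any 1 library was left out. The summed mast cell and basophil markers (8 genes) were also lower with DMXAA in each WT BMDC pair, at 195, 496 and 318 CPM in control and 152, 292 and 235 CPM with DMXAA, with Fcer1a under 1 CPM in every BMDC library. In CRE BMDCs they were at 323, 77.3 and 532 and then 227, 53.8 and 280 CPM. Their part in the Fcgr2b values was not tested.

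Fcer1g and Fcgr3 of WT BMDCs passed or failed with the pairing of the libraries. Library numbers paired control with DMXAA within a label in BMDCs, so the fit with the library number as a block within the label is given beside the unpaired one here. Fcer1g was at 480, 517 and 480 FPKM in control and 839, 858 and 585 FPKM with DMXAA, a log2 difference of 0.60 ± 0.25 (adjusted p = 0.0919, and 0.23 with total counts) that became 0.58 ± 0.12 with the block (adjusted p = 0.00333). Fcgr3 was at 556, 435 and 398 FPKM and then 394, 409 and 255 FPKM, overlapping ranges with a log2 difference of -0.42 ± 0.24 (adjusted p = 0.217, and -0.78 with an adjusted p of 0.0161 with total counts) that became -0.43 ± 0.15 with the block (adjusted p = 0.0340). In WT BMDCs 3 of the 5 genes passed without the block and all 5 with it, beside 32.2% of all 12126 genes tested without it (17.0% higher, 15.2% lower) and 48.7% with it.

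Fcgr1 and Fcgr4 rose in CRE BMDCs as well. Fcgr1 was at 14.9, 11.6 and 12.8 FPKM in control and 50.9, 48.2 and 98.1 FPKM with DMXAA, a log2 fold change of 2.30 ± 0.39 (4.94-fold, adjusted p = 0.00131). Fcgr4 was at 2.999, 5.10 and 5.49 FPKM and then 23.1, 31.0 and 34.4 FPKM, a log2 fold change of 2.68 ± 0.28 (6.41-fold, adjusted p = 4.52e-05). Neither gene had overlapping groups.

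Fcgr2b of CRE BMDCs was at 80.1, 24.5 and 98.8 FPKM in control and 25.1, 16.8 and 26.9 FPKM with DMXAA. The low control value belonged to the library numbered 2, and there the ranges overlapped. The log2 fold change was -1.59 ± 0.45 (adjusted p = 0.0217), -1.40 ± 0.23 with the block (adjusted p = 0.00113) and -1.80 without both libraries numbered 2. The call ended without the control library numbered 1 or 3 (-1.45 and -1.22, adjusted p = 0.0691 and 0.0917) and without the DMXAA library numbered 1 or 2 (-1.66 and -1.40, adjusted p = 0.0546 and 0.0596). It also missed the threshold in both limma fits (adjusted p = 0.0518 and 0.0521) and in voom with a weight per label (0.0749). Fitted alone with the 2 groups compared it had an adjusted p of 0.0759. The 2 CRE BMDC libraries numbered 2 also differed in marker sums, with macrophage markers at 2210 CPM in control and 1970 CPM with DMXAA against 5874 to 9108 CPM in the other 10 BMDC libraries. Their neutrophil markers (8 genes) summed to 693 and 411 CPM against 84.1 to 171 CPM. Their mast cell and basophil markers were the lowest of their treatment at 77.3 and 53.8 CPM, and the part of these values in Fcgr2b was not tested.

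Fcer1g of CRE BMDCs was at 430, 332 and 562 FPKM in control and 537, 470 and 835 FPKM with DMXAA. Each DMXAA library was above the control of its number while the group ranges overlapped, and the log2 difference was 0.45 ± 0.25 (adjusted p = 0.222) without and 0.44 ± 0.12 with the block (adjusted p = 0.0168). Fcgr3 was at 365, 321 and 472 FPKM and then 249, 343 and 403 FPKM, a log2 difference of -0.25 ± 0.24 (adjusted p = 0.520). Thus 3 of the 5 genes passed in CRE BMDCs without the block and 4 with it, beside 25.4% of all genes without it (14.0% higher, 11.4% lower) and 42.7% with it.

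No difference between the labels passed in BMDCs. None of the 5 genes was called in any of the 3 comparisons (CRE against WT in control, with DMXAA, and the interaction), with 0 of the 5 at an unadjusted p under 0.05 in edgeR and 0 called by DESeq2. The log2 differences of the 5 genes ran from -0.37 to 0.09 in control and from -0.30 to 0.09 with DMXAA, with SE of 0.24 to 0.44. The interaction of Fcgr4, which passed in BMDMs, was -0.20 ± 0.37 in BMDCs. Across all 12126 genes 0% passed in each of the 3 comparisons, with 99, 108 and 60 genes at an unadjusted p under 0.05, and DESeq2 called 0, 0 and 1. Some libraries were closest to one of the other label: the chi-square per gene between WT number 3 and CRE number 1 was 3.48 in control and 4.55 with DMXAA, and between WT number 2 and CRE number 3 it was 5.14 and 4.61. Libraries of one label were farther apart, WT numbers 2 and 3 at 15.9 and 45.3 and CRE numbers 1 and 3 at 20.96 and 61.8. The BMDC libraries thus did not group by label, and these comparisons hold for the labels as deposited.

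The cell types differed in the makeup of their receptors. In WT controls Fcgr2b was 5.53-fold higher in BMDCs than in BMDMs (log2 2.47 ± 0.46, adjusted p = 0.000867), with 68.7 to 98.0 FPKM against 12.3 and 16.6. Fcgr4 was 4.50-fold lower (log2 -2.17 ± 0.25, adjusted p = 1.20e-05) with no overlap of the groups. Fcgr1 was lower by -1.26 ± 0.40 (adjusted p = 0.0271) and Fcgr3 higher by 0.77 ± 0.26 (adjusted p = 0.0369), both on the log2 scale. The Fcgr1 call ended without the BMDM library numbered 1 (-0.79, adjusted p = 0.285) or the BMDC library numbered 2 or 3 (adjusted p = 0.0981 and 0.0774). The Fcgr3 call ended without either BMDM library or the BMDC library numbered 1 (0.63 to 0.98, adjusted p = 0.0567 to 0.198). Of the 5 genes 4 passed, beside 28.5% of all 13368 genes tested (13.1% higher, 15.4% lower), and Fcer1g did not (log2 -0.48 ± 0.25, adjusted p = 0.163).

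With DMXAA, Fcgr1 was 11.04-fold lower in WT BMDCs than in WT BMDMs (log2 -3.47 ± 0.42, adjusted p = 1.89e-05) and Fcgr4 7.55-fold lower (log2 -2.92 ± 0.25, adjusted p = 7.45e-07). Fcgr2b was at 1.005 ± 0.44 on the log2 scale, which missed the threshold (adjusted p = 0.0932). That made 2 of the 5 genes, both lower in BMDCs, beside 15.3% of all genes lower and 30.6% in either direction. Higher genes were 50.1% of those calls with TMM and 65.0% with total counts.

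None of the 5 genes passed the test of a different response to DMXAA in the WT cells of the 2 types. For Fcgr1 the interaction of cell type and DMXAA was -2.21 ± 0.58 (adjusted p = 0.0576), short of the threshold, and it passed in 6 of the 8 other settings that kept all libraries. Fcgr2b had an interaction of -1.46 ± 0.60 (adjusted p = 0.265). Of all genes 2.61% passed (0.883% higher, 1.73% lower), while 2 of the 5 had an unadjusted p under 0.05 in edgeR and DESeq2 called 1. Higher genes were 33.8% of all calls there with TMM, 26.4% with the median of ratios and 44.9% with total counts.

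Within each library the receptors made up different shares with and without DMXAA. As a share of the summed FPKM of the 4 receptors, Fcgr1 held 9.84 to 13.2% in control BMDMs and 49.9 to 60.4% with DMXAA (4 libraries each). The share of Fcgr3 went from 78.2 to 83.4% to 21.7 to 36.7%, and that of Fcgr4 went from 4.17 to 6.31% to 9.87 to 24.6%. The sum itself was 291 to 479 FPKM in control and 993 to 1531 FPKM with DMXAA. In BMDCs (6 libraries each) the sum stayed in one range, 362 to 651 FPKM in control and 348 to 576 FPKM with DMXAA. Fcgr3 remained the main BMDC receptor at 78.8 to 88.6% and 71.0 to 82.2%, while Fcgr2b held 6.77 to 17.8% in control and 3.15 to 7.33% with DMXAA. Shares and sums are descriptions with no test.

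**Figure D3:**
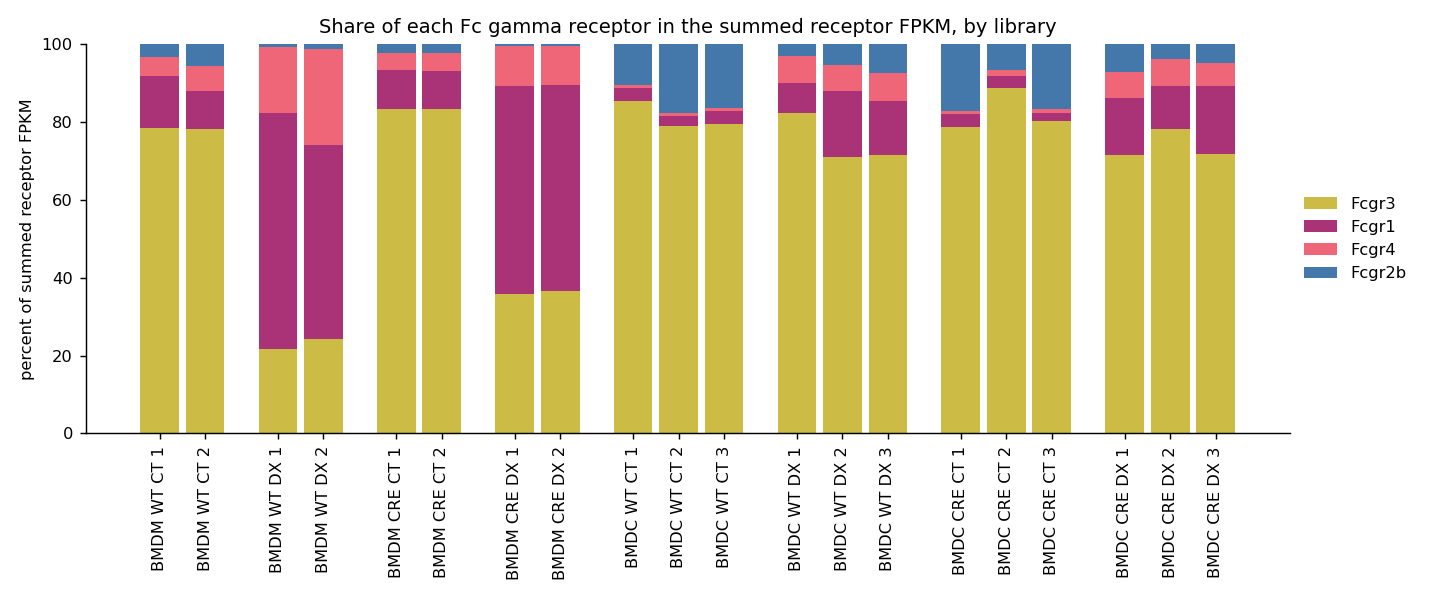
Percent of the summed FPKM of the 4 Fc gamma receptors taken by each, one bar a library (CT control, DX DMXAA). Fcgr1 takes 49.9 to 60.4% of the bar in BMDMs with DMXAA and at most 17.5% in any BMDC library.

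The ratio of activating to inhibitory receptors, log2 of (Fcgr1 + Fcgr3 + Fcgr4) over Fcgr2b in FPKM, had a higher mean with DMXAA in both cell types. In BMDMs it was 4.87, 4.05, 5.32 and 5.38 in control (WT 1, WT 2, CRE 1, CRE 2) and 6.98, 6.26, 7.29 and 7.32 with DMXAA. The mean difference within labels was 2.06, and an exact permutation test over 36 arrangements gave a two-sided p of 0.0556, the smallest that this design allows. In BMDCs it was 2.21 to 3.78 in control and 3.66 to 4.94 with DMXAA, with a mean difference of 1.57 (exact permutation test over 400 arrangements, two-sided p = 0.010). This test shuffled treatment freely among the libraries of a label and did not keep the pairs of BMDC libraries. Its p therefore does not hold for a paired design. The highest control value, 3.78, was that of CRE number 2. Without Fcgr3 in the sum the differences were 4.16 and 3.84, and without Fcgr1 they were 1.08 and 1.39. The long gene model of Fcgr2b bears on the level of this ratio and not on its difference between treatments.

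The chain was also set against the receptors it serves. Fcer1g over the summed activating receptors was 1.65 to 2.53 in control BMDMs and 0.670 to 1.13 with DMXAA, with no overlap. In BMDCs it went the other way, from 0.824 to 1.15 in control to 1.11 to 1.81 with DMXAA, where CRE number 2 gave the lowest DMXAA value and the only overlap. These ratios of FPKM are given as a description with no test.

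**Figure D4:**
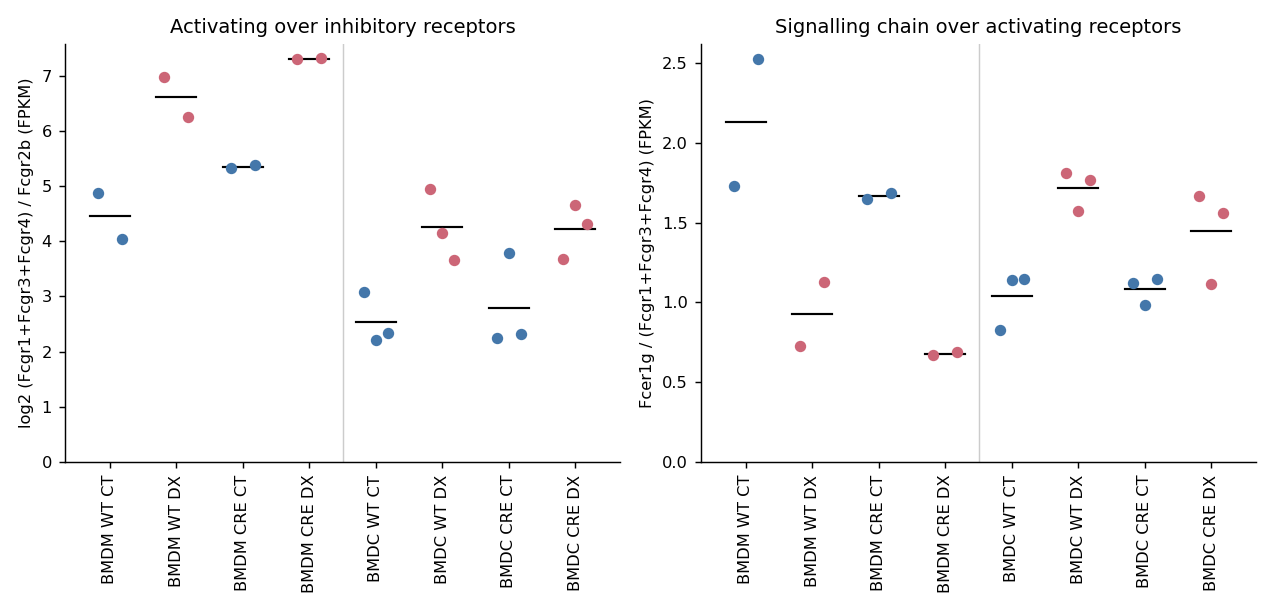
Left, log2 of the activating over the inhibitory receptor FPKM, and right, Fcer1g FPKM over the summed activating receptors, for each library (points) with group means (bars), blue for control (CT) and red for DMXAA (DX). With DMXAA the left ratio sits higher in both cell types, while the right ratio is lower in BMDMs (0.670 to 1.13) and higher in BMDCs (1.11 to 1.81).

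The promoters of the 5 genes were searched for the letters of 3 motifs. RefSeq promoters (GRCm38.p6, 300 bases that end a little after the start) were found for 5 of the 5 genes, and those of Fcgr1 and Fcgr4 are shown because both genes rose in all 4 responses. The capitals in Fcgr1 mark a match to TTCNNNGAA, the letters of a STAT (GAS) site, at position -109 from the start. The capitals in Fcgr4 mark GAAAAGGAAA, a match to the core of the interferon-stimulated response element (ISRE), at -73.
Fcgr1 promoter, chr3:96293920-96294219, minus strand: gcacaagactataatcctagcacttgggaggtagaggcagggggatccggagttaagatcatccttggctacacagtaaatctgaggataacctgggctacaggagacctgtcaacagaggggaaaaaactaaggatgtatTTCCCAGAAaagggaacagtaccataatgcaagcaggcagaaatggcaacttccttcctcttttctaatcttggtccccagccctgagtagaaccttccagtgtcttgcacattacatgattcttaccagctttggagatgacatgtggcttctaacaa
Fcgr4 promoter, chr1:171018676-171018975, plus strand: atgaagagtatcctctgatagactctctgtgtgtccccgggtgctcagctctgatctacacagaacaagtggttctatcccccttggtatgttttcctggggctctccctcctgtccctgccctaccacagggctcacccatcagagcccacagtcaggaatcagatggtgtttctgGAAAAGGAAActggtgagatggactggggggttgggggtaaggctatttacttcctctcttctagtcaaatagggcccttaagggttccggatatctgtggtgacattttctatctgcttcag
All 3 motifs were searched on both strands. The GAS letters are in 8.47% and the response element core in 3.49% of 27025 promoters of the same length. The letters GAGGAA, the core of sites of the myeloid factor PU.1, are in 28.3% and were found in the windows of Fcgr1 (-55), Fcgr4 (-22) and Fcgr3 (-6). The windows of Fcgr2b and Fcer1g held none of the 3 motifs. A match describes letters in this window and is no evidence of binding.

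Across the 20 libraries Fcgr1 and Fcgr4 had a Pearson r of 0.954 on log2(FPKM + 1), 0.965 in the 8 BMDM and 0.921 in the 12 BMDC libraries. Fcgr2b and Fcgr4 had an r of -0.788 in the 20 libraries, -0.367 in the BMDM and -0.827 in the BMDC libraries. All points share cell type and treatment, so these values are a description with no test. The genes most like each member over the same libraries were Il18, Hmox2 and Pde7b for Fcgr1 (r of 0.974 to 0.978) and Sgcb, Sdcbp and Fez2 for Fcgr4 (0.977 to 0.983). For Fcgr2b they were Il18rap, Fam43a and Flot1 (0.975 to 0.978), for Fcgr3 Bin3, Qpct and Tgfb1 (0.822 to 0.907), and for Fcer1g Grn, Sptlc1 and Nelfe (0.901 to 0.917). Within the 8 BMDM libraries the r of Fcgr2b with its 3 genes was 0.490 to 0.740.

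The other Fc receptors of the list chosen for this pathway were mostly too low to test, with 4 of 12 tested in each cell type. Trim21, the cytosolic antibody receptor, rose in every response: by 4.35 ± 0.26 in WT and 2.01 ± 0.24 in CRE BMDMs and by 3.51 ± 0.16 and 3.44 ± 0.16 in BMDCs (log2, adjusted p of at most 0.00381). Its interaction in BMDMs was -2.34 ± 0.33 (adjusted p = 0.0218). Fcgrt, the neonatal Fc receptor that recycles IgG, fell in WT BMDCs (-1.12 ± 0.37, adjusted p = 0.0364) and was at -1.06 ± 0.37 in CRE BMDCs (adjusted p = 0.0535). With the block 1 of the 4 genes tested rose and 3 fell in BMDCs of either label, where 48.7% of all genes passed in WT and 42.7% in CRE. Fcrls fell in BMDMs, by -0.77 in WT and -1.13 in CRE (adjusted p = 0.0177 and 0.0153).

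The list of Src family kinases and Syk, which also holds Btk of another kinase family, was tested in full. Of its 8 kinases in WT BMDMs 5 rose and 0 fell, beside 18.4% and 20.7% of all genes. The list median was 0.56 against -0.08 for all genes. With total counts 3 rose and 2 fell, beside 1400 higher and 5449 lower of all 11569 genes. Lyn rose by 1.78 ± 0.27, Src by 2.77 ± 0.69 and Syk by 0.66 ± 0.12 (log2, adjusted p of 0.00307 to 0.0191), of which Syk was at 0.15 with total counts (adjusted p = 0.265). In CRE BMDMs 1 of the 8 rose and 0 fell, beside 7.28% and 2.72% of all genes. DESeq2 and the block each called 3 higher, beside 1233 and 1808 of all 11569 genes. In these cells Lyn was at 0.96 ± 0.27 and Syk at 0.41 ± 0.11, and neither passed (adjusted p = 0.0730 and 0.0716). The interaction of label and DMXAA called 0 of the 8 in edgeR, with 0 at an unadjusted p under 0.05. With the block it called 1 lower, beside 14.7% of all genes. WT BMDCs had 2 higher and 2 lower, with Btk at -0.79 ± 0.14, beside 17.0% and 15.2% of all genes. CRE BMDCs had 2 higher and 1 lower, beside 14.0% and 11.4% of all genes. Fgr passed in none of the 4 responses.

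Downstream relays had calls in both directions, as all genes did. Of 14 activating relay genes 4 rose and 3 fell in WT BMDMs, beside 18.4% and 20.7% of all genes, from Pik3cd (1.42 ± 0.28) to Pik3cg (-1.96 ± 0.46), both catalytic subunits of leukocyte PI3K. With total counts 3 rose and 6 fell, beside 1400 higher and 5449 lower of all 11569 genes. In CRE BMDMs edgeR called 0 of the 14, with 6 at an unadjusted p under 0.05, and DESeq2 called 1 higher and 1 lower. With total counts 0 rose and 2 fell there, beside 683 higher and 885 lower of all 11569 genes. With the block 5 rose and 3 fell, beside 1808 higher and 1112 lower of all genes. In WT BMDCs 1 rose and 3 fell and in CRE BMDCs 0 rose and 3 fell, with Pik3cg the largest fall in both (-1.81 ± 0.27 and -1.42 ± 0.27). These counts stand beside 32.2% and 25.4% of all genes called. With total counts none rose in BMDCs and 6 and 5 fell, whereas with the block 5 rose and 6 fell in WT and 4 rose and 3 fell in CRE BMDCs. Of all 12126 genes total counts called 3754 lower in WT and 3322 in CRE BMDCs, and the block called 48.7% and 42.7% in either direction.

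Of the 10 genes of the inhibitory relay 2 rose and 2 fell in WT BMDMs and in both labels of BMDCs, and 1 rose and 1 fell in CRE BMDMs. These shares stand beside 39.2% of all genes called in WT BMDMs, 10.0% in CRE BMDMs, and 32.2% and 25.4% in WT and CRE BMDCs. With the block 4 rose and 2 fell in WT BMDMs and in BMDCs of either label, and 4 rose and 1 fell in CRE BMDMs. The block called 6109 of all 11569 genes in WT and 2920 in CRE BMDMs, and 5911 and 5181 of 12126 in BMDCs. With total counts 1 rose and 4 fell in WT BMDMs, 0 and 1 in CRE BMDMs, and 1 and 3 in BMDCs of either label. Of all genes total counts called 1400 higher and 5449 lower in WT and 683 and 885 in CRE BMDMs. In BMDCs they called 1349 and 3754 in WT and 1190 and 3322 in CRE. The 2 phosphatases that Fcgr2b and related receptors recruit went apart. Inpp5d, encoding the lipid phosphatase SHIP1, fell by -1.36 ± 0.26 in WT BMDMs and by -1.19 ± 0.26 and -0.88 ± 0.26 in WT and CRE BMDCs (adjusted p = 0.00757, 0.00488 and 0.0283). It was at -0.04 ± 0.26 in CRE BMDMs (adjusted p = 0.950), and its interaction of 1.33 ± 0.37 missed the threshold (adjusted p = 0.108). Ptpn6, encoding SHP-1, rose in all 4 responses by 0.76 to 1.25 (adjusted p of 0.00273 to 0.0380), a call that did not hold with total counts in CRE BMDMs or in BMDCs. Dok2, an adaptor that restrains Ras signalling, had the largest fall of the list in every response, -3.05 ± 0.28 and -1.15 ± 0.25 in WT and CRE BMDMs and -2.81 ± 0.34 and -2.002 ± 0.33 in BMDCs.

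Of 11 receptors and adaptors listed around the chain, 9 were tested in BMDMs. The list includes Pilra and Sirpa, which encode inhibitory receptors that do not use the chain. In WT BMDMs 0 rose and 2 fell, Pilra (-1.31 ± 0.39) and Sirpa (-0.999 ± 0.18, named after its value was seen), beside 18.4% and 20.7% of all genes. With total counts 0 rose and 4 fell, with DESeq2 1 rose and 2 fell, and with the block 2 rose and 3 fell. Of all 11569 genes these settings called 5449, 2277 and 3255 lower. In CRE BMDMs edgeR called 0 of the 9, with 1 at an unadjusted p under 0.05, and DESeq2 called 0. Of all genes edgeR called 10.0% there. With total counts 0 rose and 1 fell, and with the block 1 rose and 2 fell, beside 885 and 1112 of all 11569 genes lower. In BMDCs 2 of 10 rose in WT and 1 in CRE, beside 17.0% and 14.0% of all genes, and none fell. Falls appeared in other settings, 2 in WT and 1 in CRE with total counts or DESeq2 and 2 in each label with the block. Of all 12126 genes total counts called 3754 and 3322 lower in WT and CRE, DESeq2 2081 and 1694, and the block 2931 and 2545. Tyrobp, the DAP12 chain that plays the part of Fcer1g for other receptors, was at -0.18 ± 0.13 and -0.36 ± 0.13 in BMDMs and at -0.03 ± 0.22 in BMDCs of either label, and passed nowhere. Clec4e, the Mincle receptor that signals through Fcer1g, rose in BMDCs by 4.38 ± 0.58 in WT and 3.56 ± 0.56 in CRE (adjusted p = 0.000219 and 0.000878). In BMDMs with DMXAA it was lower in CRE than in WT by -4.58 ± 1.12 (adjusted p = 0.0339).

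Between the cell types the relay lists had calls in both directions, beside 28.5% of all genes in controls and 30.6% with DMXAA. In WT controls the inhibitory relay had 1 of 10 genes higher in BMDCs and 6 lower, against 1 and 5 once DMXAA was added, with Inppl1 (SHIP2) at -1.71 and -1.48 on the log2 scale. Of the activating relay 5 of 14 were higher and 5 lower in controls, and 2 and 3 with DMXAA, where Lat2 was at -2.96. Clec4n, encoding the Dectin-2 receptor that signals through Fcer1g, was higher in BMDCs by 4.01 ± 0.55 in controls and 4.88 ± 0.58 with DMXAA. The 8 mast cell and basophil markers, cells that also use Fcer1g, summed to 53.8 to 532 CPM in BMDCs and 1.92 to 38.8 CPM in the 8 BMDM libraries. Hdc alone reached 37.8 CPM in BMDMs with DMXAA and at most 0.21 CPM in control. The part of these markers in the values above was not tested.

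In the BMDM libraries numbered 3 the 5 genes were nearly absent. Fcgr3 had 0, 2, 0 and 1 reads in WT control, WT DMXAA, CRE control and CRE DMXAA, in which a count of 0 allows up to 3 reads, and Fcgr1 had 4, 5, 0 and 6. Fcgr2b had 0, 0, 4 and 9 reads and Fcer1g had 1, 1, 9 and 10. Fcgr4 was the best detected of the 5, with 10, 23, 9 and 27 reads (exact 95% Poisson intervals 4.80 to 18.4, 14.6 to 34.5, 4.12 to 17.1 and 17.8 to 39.3). The DMXAA library had 2.27 times the Fcgr4 reads of the control per total reads in WT (exact 95% interval 1.04 to 5.33) and 2.66 times in CRE (1.22 to 6.43). Each ratio compares 1 library with 1 library and covers counting error only, as do the intervals. In these libraries the macrophage markers summed to 43.1 to 71.9 CPM with C1qa at 0, and no member exceeded 1.43 CPM against at least 25.4 CPM in the other BMDM libraries.

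**Figure D5:**
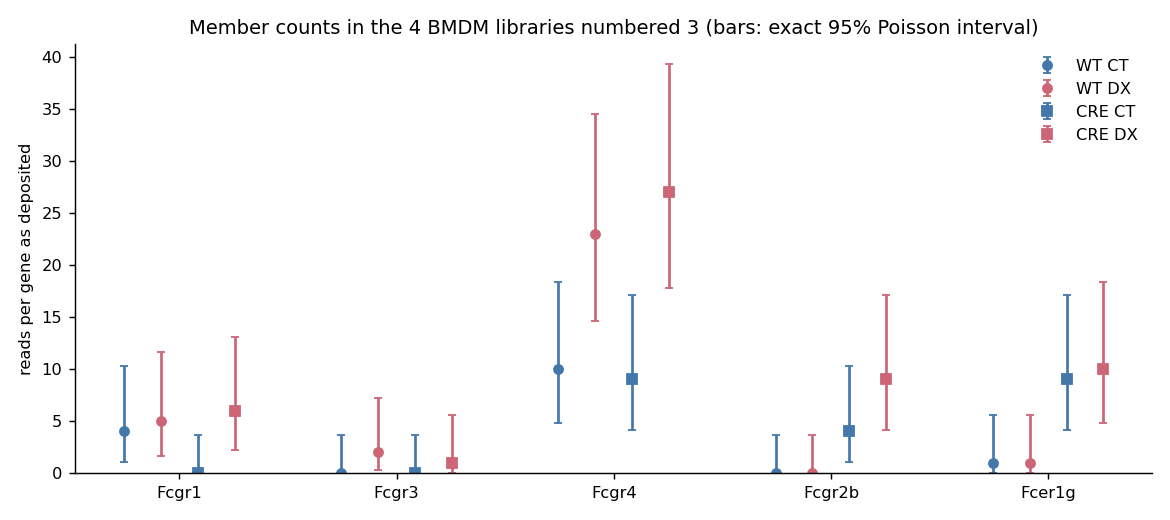
Reads of the 5 genes in each of the 4 BMDM libraries numbered 3 (circles WT, squares CRE, blue control CT, red DMXAA DX), with exact 95% Poisson intervals. Fcgr4 holds 9 and 10 reads in control and 23 and 27 with DMXAA, and every other value is at or under 10.

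Reads of near-identical stretches could be split between members. Of the 50-base stretches in Fcgr3 transcripts 9.58% also occur in Fcgr2b, which is 2.92% of those of Fcgr2b, and no other pair of the 5 shares any. The library kit does not mark strand, so reads of Fcgr2b cannot be told apart from those of the antisense gene Gm38204 where they overlap, though Gm38204 itself had 0 to 4 reads in the 20 libraries.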

How the data were processed

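PolyA RNA was sequenced in 24 libraries, 8 groups of 3. Per the labels and the study's methods, the authors used CASAVA 1.8, fastp, HISAT2 2.0.5 and featureCounts 1.5.0-p3, with builds given as GRCm38 and mm10 and DESeq2 1.20.0 for their own comparisons. The deposited table holds whole-number read counts per gene and FPKM that the authors scaled to effective library sizes. Its 60 columns of the authors' comparisons (group means, fold changes and p-values) were not used.

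Counts were tested with edgeR 4.0.16 (R 4.3.3, quasi-likelihood, TMM) on genes that reached an FPKM of 1 in 3 or more libraries (2 where a group holds 2). Benjamini-Hochberg adjustment ran over all genes tested, with a threshold of 0.05. BMDMs were fitted on the 8 libraries numbered 1 and 2 (11569 genes), BMDCs on 12 (12126 genes) and both cell types on these 20 (13368 genes), giving 13 comparisons. The ratio of receptors was tested by exact permutation (scipy 1.17.1). The fit was tested on simulated data first. Totals of 15657347 to 18912887 counts per library set the precision, and exact 95% Poisson intervals cover counting error only. Alternatives were the median of ratios, total counts, DESeq2 1.42.0, limma 3.58.1 on log2(FPKM + 1) and log2(FPKM + 0.1), voom with a weight per label, 2 other filters, other sets of libraries and replicate blocks. Total counts and the fit without both CRE BMDC libraries numbered 2 were added after seeing the data.

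Library numbers were checked for pairing by correlating deviations from group means. Control and DMXAA libraries of one number and label correlated at 0.407 to 0.691 in all 6 BMDC pairs. A fit with the library number as a block within the label is therefore given beside the main fit. The main fit and the permutation test did not use the pairs. Where the pairing comes from is not given in the labels. The 5 genes and the gene lists were chosen with earlier results of these data known. Named genes were the 5 members, 10 fixed pathway genes (1 of them is not reported here), the largest rise and fall of each list, and the 3 genes most like each member.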

Additional observations from a re-analysis of the deposited data

Results flagged for a closer look

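In BMDMs the response to DMXAA differed between the labels, by the test of the interaction itself, for Fcgr4 (-1.16 on the log2 scale, adjusted p = 0.0218 in edgeR's quasi-likelihood test), Trim21 (-2.34, adjusted p = 0.0218) and Dok2 (1.90, adjusted p = 0.0440). Sirpa differed between the cell types in its response in WT cells (1.08, adjusted p = 0.0462).

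The BMDM libraries numbered 3 lay outside the tests and held few reads of the members. In 3 of 9 ratios of 1 library to 1 library the exact 95% counting interval lay above 1, with no adjustment for their number. Fcgr4 had 2.27 times the control in WT and 2.66 times in CRE, and Fcgr1 had 6 reads in the CRE library with DMXAA against 0 in its control. These values compare libraries and not the conditions. Groups of 3 libraries or fewer were not tested for outlying samples.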

How the results depend on the processing

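With all 12 BMDM libraries fitted, 0 of the 5 genes were called in each comparison that uses BMDMs, from 3 in the WT and 2 in the CRE response, 3 between labels with DMXAA, 1 in the interaction, and 4 and 2 between cell types in control and with DMXAA. The BMDM interaction called 2 with DESeq2 and 2 with the replicate block within the label, where 10.3% and 14.7% of all genes were called against 3.66%. The cell type interaction called 1 with the median of ratios, DESeq2, the FPKM minimum of 5 and either limma fit, and 2 without a filter. Leaving out one library gave 1 to 3 calls between labels in BMDMs with DMXAA, 0 to 2 in the BMDM interaction, 2 to 4 between cell types in control and 0 to 1 in the cell type interaction.

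The replicate block within the label raised the calls of WT BMDCs from 3 to 5 and of CRE BMDCs from 3 to 4, as the share of all genes went from 32.2% to 48.7% and from 25.4% to 42.7%. In BMDMs, with 2 pairs a label, the correlation was 0.685 in WT, within the BMDC range of 0.407 to 0.691, and 0.0275 in CRE. There the block took CRE calls from 2 to 3, with Fcgr2b at -0.63 (adjusted p = 0.0167), and added Fcer1g to the interaction (-0.598, adjusted p = 0.0314). It changed no other call of the 5 genes.

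Signs turned only for values that were not called in the main fit. Of the turned values, that of Fcgr3 in WT BMDMs with total counts passed the threshold (edgeR, adjusted p = 0.0356). With total counts these were Fcgr3 in WT (-0.50) and CRE BMDMs (-0.12), Fcer1g in CRE BMDMs (-0.19), Fcgr1 between labels with DMXAA in BMDMs (0.13) and Fcer1g in the cell type interaction (0.11, and 0.00687 with no filter). With the FPKM minimum of 5, Fcgr3 in WT and Fcer1g in CRE BMDMs were -0.0115 and -0.0187. Fcgr3 in the BMDM interaction was -0.00340 and -0.00354 with limma and -0.00177 with all 12 libraries, where Fcer1g between cell types was 0.146 and 0.0469. Without both CRE BMDC libraries numbered 2, the label differences were 0.113, -0.00988 and 0.0208 for Fcgr2b, Fcgr4 and Fcer1g in control and 0.115 for Fcgr2b with DMXAA. The cause of these changes was not tested. Between labels in control BMDMs, higher genes were 100% of 5 calls and, with total counts, 83.3% of 6.

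Leaving out one library in turn also turned the sign of values that were not called, over these ranges. For the WT BMDM response, -0.148 to 0.240 for Fcgr3. For the CRE BMDM response, -0.0161 to 0.0856 for Fcer1g. For labels in control BMDMs, -0.111 to 0.643 for Fcgr1. For labels in BMDMs with DMXAA, -0.513 to 0.328 for Fcgr1. For the BMDM interaction, -0.792 to 0.0925 for Fcgr1 and -0.134 to 0.253 for Fcgr3. For labels in control BMDCs, -0.656 to 0.114 for Fcgr2b, -0.0852 to 0.311 for Fcgr4 and -0.358 to 0.0215 for Fcer1g. For labels in BMDCs with DMXAA, -0.329 to 0.609 for Fcgr1, -0.323 to 0.159 for Fcgr2b, -0.259 to 0.0876 for Fcgr3 and -0.261 to 0.0242 for Fcgr4. For the BMDC interaction, -0.182 to 0.595 for Fcgr2b, -0.00517 to 0.343 for Fcgr3 and -0.449 to 0.0628 for Fcer1g. For the cell type interaction, -0.184 to 0.0761 for Fcer1g.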
